A study of Mus musculus with 20 samples.

Results

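Elastic fibres are the recoiling strands of the extracellular matrix, and the genes followed here are 10 that encode their core, scaffold and assembly proteins: Eln, Fbn1, Fbn2, Fbln1, Fbln2, Fbln5, Efemp2, Mfap4, Mfap5 and Lox. They were chosen by name for their known part in the fibre, with no threshold on their values, out of 51789 genes in the deposited table. Earlier results of these data were known when the choice was made. The tissue was the intervertebral disc of BL6 mice aged 24 months, dissected into its gel-like core, the nucleus pulposus (NP), and the lamellar outer ring, the annulus fibrosus (AF). Mice were 18 months old when dosing by intraperitoneal injection began, and it ran for 6 months on a weekly schedule. Vehicle mice received DMSO alone, and the other mice received MDL-800 in the same amount of DMSO, so every group carried the solvent. MDL-800 is a small-molecule activator of SIRT6, an NAD-dependent deacylase of chromatin and the subject of the series title. Each tissue was read with vehicle and with MDL-800, which makes 4 groups of 5 libraries. The labels also call the material primary cells, while their protocol describes dissected tissue with no culture. The dose, the sex of the mice and the number of animals behind each library are not stated in the labels, and no young or undosed mice are among these groups. A library is called here by its group and the number in its title.

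An elastic fibre is built on a sheath of microfibrils, polymers of fibrillin that carry associated glycoproteins. Tropoelastin, the soluble product of Eln, is brought to that scaffold by fibulins, and lysyl oxidases then cross-link it into insoluble elastin, a material with very slow turnover in the adult. In the disc, elastic fibres run between and within the collagen lamellae of the AF and are sparse in the NP.

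The RNA was total RNA after ribosomal depletion, and values are FPKM (fragments per kilobase of transcript, relative to all fragments of the library) divided by a scale factor for each library, called scaled FPKM below. Because FPKM is per length, levels of different genes can be set side by side. Depth is not given in the table, and from the steps of its low values it was estimated at 12300000 to 22500000 fragments per library. In the summed level of 8 NP markers (such as T, Krt8 and Krt19), NP libraries lay between 25616 and 32851 scaled FPKM and AF libraries between 2494 and 15088. Of these 8, Car12 was the one whose mean was lower in NP than in AF in both treatments. The AF library with 15088 was AF vehicle 9, while the other 9 AF libraries held at most 7510. Tendon-like markers of the AF summed to 895 or more in AF and to 207 or less in NP, without overlap, and NP markers were present in every AF library. Measurements on bulk tissue cannot tell fewer cells of a type from less RNA per cell. Nothing in the labels says that the 5 libraries of a group came from separate mice, so p-values measure the spread between these libraries.

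In GRCm38 (mm10) the members are all annotated as protein-coding: Eln at chr5:134702593-134747323 (minus strand), Fbn1 at chr2:125300594-125507993 (minus) and Fbln1 at chr15:85205949-85286535 (plus). Fbln2 lies at chr6:91212455-91272540 (plus), Fbln5 at chr12:101746565-101819055 (minus) and Efemp2 at chr19:5473954-5482517 (plus). Mfap4 lies at chr11:61485431-61488900 (plus) and Mfap5 at chr6:122505845-122529290 (plus), on the chromosome of Fbln2. Fbn2 and Lox are both on chromosome 18.

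Promoter sequence is shown for Fbln1, Fbln5 and Efemp2, because the first 2 were far lower in NP than in AF while Efemp2, a fibulin of the same family, was at a like level in both. The table of RefSeq promoters used here (GRCm38.p6) matched 5 of the 10 members, and these 3 had a window free of annotated exons. Other starts of all 3 genes have windows that overlap exons and are not shown. Each line gives the 250 bases before a RefSeq start, 5′ to 3′ on the strand of the gene, and for Fbln5 and Efemp2 that start lies outside the GENCODE gene given above. Capitals mark GGGCGG, the core of a GC box, or its complement CCGCCC.

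Fbln1, chr15:85205699-85205948 (plus): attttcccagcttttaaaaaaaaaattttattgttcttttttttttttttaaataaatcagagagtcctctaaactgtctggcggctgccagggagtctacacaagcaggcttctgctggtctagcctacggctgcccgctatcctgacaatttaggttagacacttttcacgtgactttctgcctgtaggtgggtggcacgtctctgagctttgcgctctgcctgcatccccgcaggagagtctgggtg
Fbln5, chr12:101819120-101819369 (minus): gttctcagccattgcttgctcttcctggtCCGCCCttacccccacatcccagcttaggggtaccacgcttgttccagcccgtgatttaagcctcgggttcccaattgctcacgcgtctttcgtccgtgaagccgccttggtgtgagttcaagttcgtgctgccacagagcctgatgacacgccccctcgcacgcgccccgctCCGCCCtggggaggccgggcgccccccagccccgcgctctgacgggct
Efemp2, chr19:5473696-5473945 (plus): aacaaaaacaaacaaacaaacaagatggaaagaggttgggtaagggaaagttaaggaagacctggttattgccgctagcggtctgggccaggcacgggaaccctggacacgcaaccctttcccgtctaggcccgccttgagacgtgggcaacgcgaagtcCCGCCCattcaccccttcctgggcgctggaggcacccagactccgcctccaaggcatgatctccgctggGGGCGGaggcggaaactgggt

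The Fbln5 and Efemp2 windows each held GGGCGG, on either strand, 2 times, and the Fbln1 window held none. At other starts the second Fbln1 window held 1 match, the second Fbln5 window held 0 and the 2 other Efemp2 windows held 5 each, so these counts describe windows and not genes. Of 27025 promoters of the same length, 1 for each gene, 32.9% held it at least once. G and C made up 46.4% of the Fbln1 window shown, 65.2% of that of Fbln5 and 59.2% of that of Efemp2, but 62.4% of the second Fbln1 window and 49.6% of the second Fbln5 window. None of the 3 held TATAAA or TGANTCA (the AP-1 site), motifs found in 13.0% and 6.87% of all promoters, on either strand. These are matches of letters and say nothing of which factors bind there.

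The question of the tissue comparison was how far the 2 parts of the aged disc differ in these genes. Most were far lower in NP: the NP mean was 2 to 8% of the AF mean in both treatments for Eln, Fbn1, Fbln1, Fbln5, Mfap5 and Lox. For Eln with vehicle 1 library carried that value, which was 3.55% with NP vehicle 3 and 1.37% without it. Mfap4 and Fbn2 were near or under the level of 3 fragments in NP, so no percentage is read for them. Fbln2 kept 46.3% of the AF level with vehicle and 66.6% with MDL-800, and Efemp2 kept 86.4% and 103%. In vehicle mice limma called 8 of the 9 members it could test lower in NP and none higher, in a comparison where 55.7% of 16383 genes were called, 33.9% lower and 21.8% higher. With MDL-800 it called 7 of 9 lower and none higher, where 62.8% of all genes were called, 37.2% lower and 25.6% higher. The libraries of NP lay wholly below those of AF for 9 of 10 members with vehicle and for 8 with MDL-800, which was so for 25.9% and 30.5% of genes tested. Called means a Benjamini-Hochberg adjusted p under 0.05 over all genes tested.

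That count needs its filter beside it. Genes were tested when they reached 1 FPKM in at least 5 of the 20 libraries. Eln and Mfap4 reached it in 0 of 10 NP libraries and Fbn1 and Fbln5 in 4. These 4 passed only with AF libraries counted, and such a filter favours genes that are higher in AF. Eln and Mfap4 passed through AF libraries alone. Fbn2 reached it in 3 AF libraries and was not tested. With every gene above 0 in any library kept, all 10 members were tested, and 9 were called lower with vehicle and 8 with MDL-800, where 20.7% and 23.2% of 32358 genes were called lower.

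**Figure D1:**
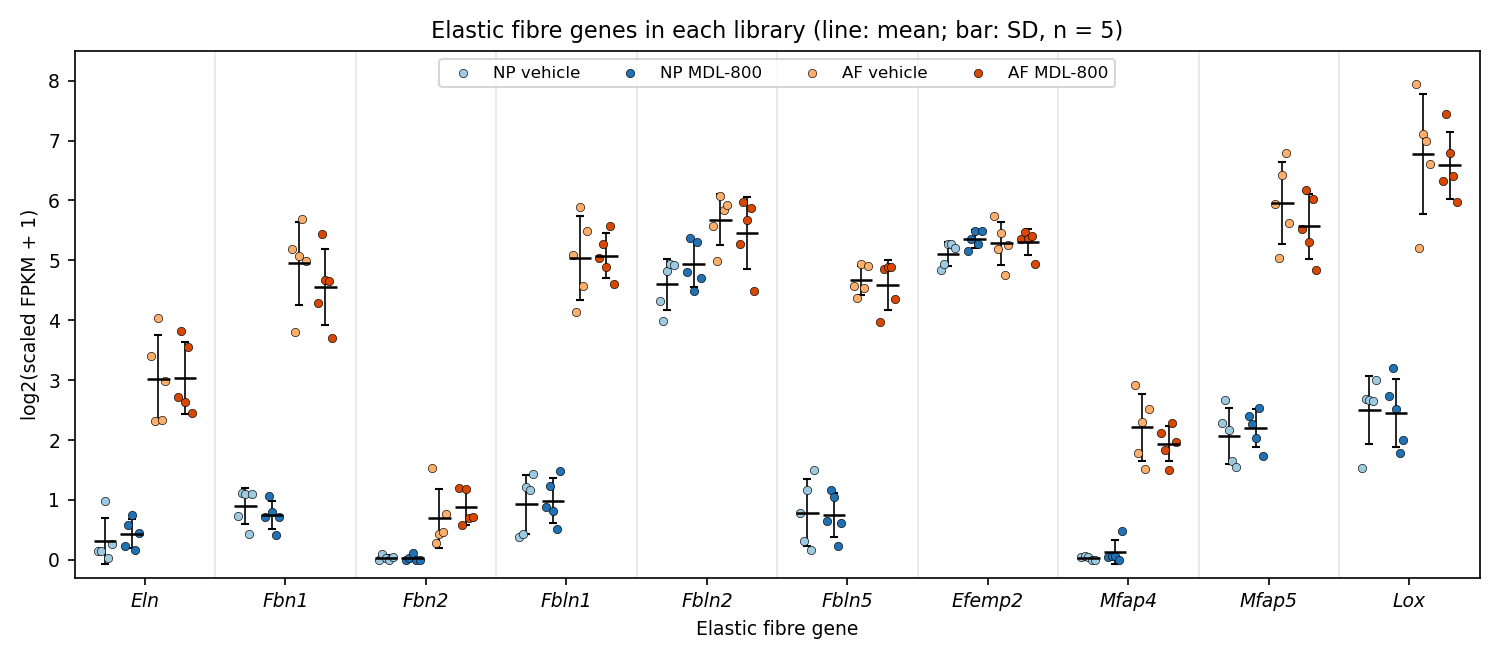
Level of the 10 elastic fibre genes in each of the 20 libraries, as log2(scaled FPKM + 1), with the mean (line) and SD (bar) of the 5 libraries in each group. NP points (blue) lie below AF points (orange) without overlap for 8 genes in both treatments, Fbln2 overlaps with MDL-800 and Efemp2 overlaps in both.

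Eln encodes tropoelastin, the elastic core of the fibre. NP vehicle libraries 1, 2, 3, 5 and 6 gave 0.107, 0.113, 0.981, 0.0197 and 0.197 scaled FPKM, and NP MDL-800 libraries 15, 18, 19, 20 and 22 gave 0.179, 0.505, 0.686, 0.127 and 0.360. AF vehicle libraries 8, 9, 10, 12 and 13 gave 9.60, 4.02, 15.4, 4.03 and 6.91, and AF MDL-800 libraries 25, 27, 28, 29 and 30 gave 5.59, 13.1, 5.21, 10.8 and 4.49. The highest NP library was still far below the lowest AF library, and NP vehicle 3 stood above the other NP vehicle libraries. Libraries are listed in this order for each gene below. Group means were 0.284 ± 0.395 (SD, n = 5) and 0.372 ± 0.231 in NP against 7.99 ± 4.75 and 7.83 ± 3.85 in AF, vehicle first. On the log2(scaled FPKM + 1) scale, which understates the change of such low genes, the NP level differed from the AF level by -2.70 (SE 0.33, limma adjusted p = 7.09e-05) with vehicle. It differed by -2.60 (SE 0.27, limma adjusted p = 1.43e-05) with MDL-800. An Eln value of 0.0664 is what 3 fragments give at the lowest estimated depth, so NP vehicle 5 lies at the limit of detection.

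Fibrillins form the microfibril scaffold. Fbn1, the main fibrillin of the adult, gave 0.665, 1.17, 1.13, 0.355 and 1.15 scaled FPKM in NP with vehicle and 0.637, 1.09, 0.747, 0.328 and 0.649 in NP with MDL-800. It gave 35.4, 13.0, 32.8, 50.5 and 30.9 in AF with vehicle, and 18.5, 42.5, 24.4, 24.1 and 12.1 in AF with MDL-800. Every AF library was at least 10 times the highest NP library, and AF vehicle 9 and AF MDL-800 30 were the lowest of their groups. The NP level differed from AF by -4.05 on the log2 scale (SE 0.30, limma adjusted p = 5.75e-06) with vehicle and by -3.81 (SE 0.27, adjusted p = 1.91e-06) with MDL-800. Gm9913, a gene on the opposite strand that shares 2442 exonic bases with Fbn1, reached at most 0.127 scaled FPKM.

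Fbn2, the fibrillin best known from development, was the least abundant member in AF, with 0.212 to 1.88 scaled FPKM in AF with vehicle, and 0.499 to 1.30 in AF with MDL-800. In NP it was listed at 0 in 5 of 10 libraries, where 3 fragments would give 0.0225 at the lowest depth, and its highest value was 0.0807. Its tissue difference was -0.66 (SE 0.21, limma adjusted p = 0.0411) with vehicle and -0.85 (SE 0.13, adjusted p = 0.000711) with MDL-800, in the fit that kept every gene above 0. As a share of both fibrillins, Fbn2 made up 2.13% in AF with vehicle, and 4.06% in AF with MDL-800. The AF shares differed by 1.93 percentage points (exact two-sided permutation test, p = 0.135, adjusted p = 0.432 over 16 tests of ratios).

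Fibulins bind tropoelastin, fibrillin and one another, and here they split by tissue. Fbln1, found along elastic fibres and in basement membranes, ranged from 0.30 to 1.80 scaled FPKM over the NP libraries and from 16.6 to 58.4 over the AF libraries. Its NP level differed from AF by -4.11 on the log2 scale (SE 0.34, limma adjusted p = 8.5e-06) with vehicle and by -4.09 (SE 0.22, adjusted p = 7.11e-07) with MDL-800.

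Fbln5, which guides tropoelastin onto microfibrils and is needed for normal elastic fibres in mice, gave 0.729, 0.248, 1.23, 0.118 and 1.82 scaled FPKM in NP with vehicle and 0.577, 1.25, 1.06, 0.180 and 0.535 in NP with MDL-800. It gave 22.8, 19.7, 29.7, 22.2 and 29.0 in AF with vehicle, and 14.7, 28.1, 28.6, 28.6 and 19.4 in AF with MDL-800. Its AF vehicle libraries were the most even of all 10 members, with a coefficient of variation of 18.0%. The NP level differed from AF by -3.88 (SE 0.25, limma adjusted p = 3.98e-06) with vehicle and by -3.85 (SE 0.23, adjusted p = 1.12e-06) with MDL-800.

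Fbln2, a larger fibulin of elastic fibres and basement membranes, was abundant in both tissues. It gave 19.1, 14.9, 27.4, 29.7 and 29.3 scaled FPKM in NP with vehicle and 27.0, 40.3, 21.5, 38.5 and 25.1 in NP with MDL-800. It gave 46.8, 30.8, 66.5, 56.3 and 59.7 in AF with vehicle, and 37.9, 61.8, 49.9, 57.7 and 21.5 in AF with MDL-800. With vehicle the highest NP library lay just under the lowest AF library, AF vehicle 9, and with MDL-800 the tissues overlapped. The NP level was lower by -1.08 on the log2 scale (SE 0.24, 95% confidence interval -1.61 to -0.55, limma adjusted p = 0.00295) with vehicle. With MDL-800 the difference was -0.52 (SE 0.28, interval -1.15 to 0.10, adjusted p = 0.129), and without AF MDL-800 30 it was -0.76 (adjusted p = 0.0101). Whether the tissue difference itself changed with MDL-800 was tested as a contrast of all 4 groups, which gave 0.56 (SE 0.39, adjusted p = 0.9997).

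Efemp2 encodes fibulin-4, which binds both tropoelastin and lysyl oxidase and without which elastic fibres do not form in mice. It gave 27.6, 29.7, 37.5, 37.7 and 35.8 scaled FPKM in NP with vehicle and 34.5, 39.8, 44.2, 37.8 and 44.1 in NP with MDL-800. It gave 52.8, 35.6, 43.0, 26.1 and 37.3 in AF with vehicle, and 40.1, 43.3, 39.8, 41.6 and 29.7 in AF with MDL-800. The tissues overlapped in both treatments. The difference was -0.18 (SE 0.17, interval -0.56 to 0.20, limma adjusted p = 0.402) with vehicle and 0.05 (SE 0.11, interval -0.21 to 0.30, adjusted p = 0.738) with MDL-800. The sign of the second value turned with no scaling (-0.035) and with equal library sums (-0.019). Efemp2 shares 173 exonic bases with Mus81 on the opposite strand, which was at 5.62 to 8.78 scaled FPKM on average in the 4 groups. Whether counting used the strand is not stated, so reads in that stretch cannot be assigned with certainty.

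Of the microfibril-associated proteins, Mfap4 is a glycoprotein that binds elastin and fibrillin. It ranged from 1.87 to 6.58 scaled FPKM in AF with vehicle, and from 1.84 to 3.88 in AF MDL-800, and in NP 9 of 10 libraries were at 0.0505 or less. At the lowest depth 3 fragments give 0.153, so NP MDL-800 22, at 0.391, was the single NP library above that limit, and no fold is given. The NP level differed from AF by -2.18 on the log2 scale (SE 0.24, limma adjusted p = 3.45e-05) with vehicle and by -1.81 (SE 0.16, adjusted p = 5.81e-06) with MDL-800. A neighbour on the opposite strand, Mapk7, shares 89 exonic bases with Mfap4 and was at a similar level in NP and AF, 5.03 and 5.75 scaled FPKM with vehicle.

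Mfap5 (MAGP-2), a small protein that decorates fibrillin microfibrils, gave 3.90, 5.37, 3.50, 2.15 and 1.95 scaled FPKM in NP with vehicle and 4.30, 3.82, 3.12, 4.78 and 2.33 in NP with MDL-800. It gave 60.2, 32.1, 85.1, 109 and 48.0 in AF with vehicle, and 44.8, 71.2, 38.4, 64.2 and 27.6 in AF with MDL-800. No NP library reached the AF range. The NP level differed from AF by -3.89 on the log2 scale (SE 0.32, limma adjusted p = 9.15e-06) with vehicle and by -3.38 (SE 0.25, adjusted p = 2.34e-06) with MDL-800. Mfap5 was well above its relative Mfap2 (MAGP-1) in both tissues, at 89.6% of their sum in NP with vehicle and 88.8% in AF vehicle.

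Lox encodes lysyl oxidase, the copper enzyme that starts the cross-links of elastin and collagen. It gave 1.89, 5.46, 5.36, 5.26 and 6.98 scaled FPKM in NP with vehicle and 5.66, 8.17, 4.72, 2.45 and 2.99 in NP with MDL-800. It gave 245, 36.1, 138, 126 and 96.5 in AF with vehicle, and 78.7, 174, 109, 83.8 and 62.1 in AF with MDL-800. Lox had the highest mean of the members in AF in both treatments. Its coefficient of variation was 59.4% with vehicle, where AF vehicle 9 was lowest, and 43.2% with MDL-800. The NP level differed from AF by -4.27 on the log2 scale (SE 0.45, limma adjusted p = 2.9e-05) with vehicle, and without AF vehicle 9 by -4.66. With MDL-800 it differed by -4.14 (SE 0.32, adjusted p = 2.55e-06).

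**Figure D2:**
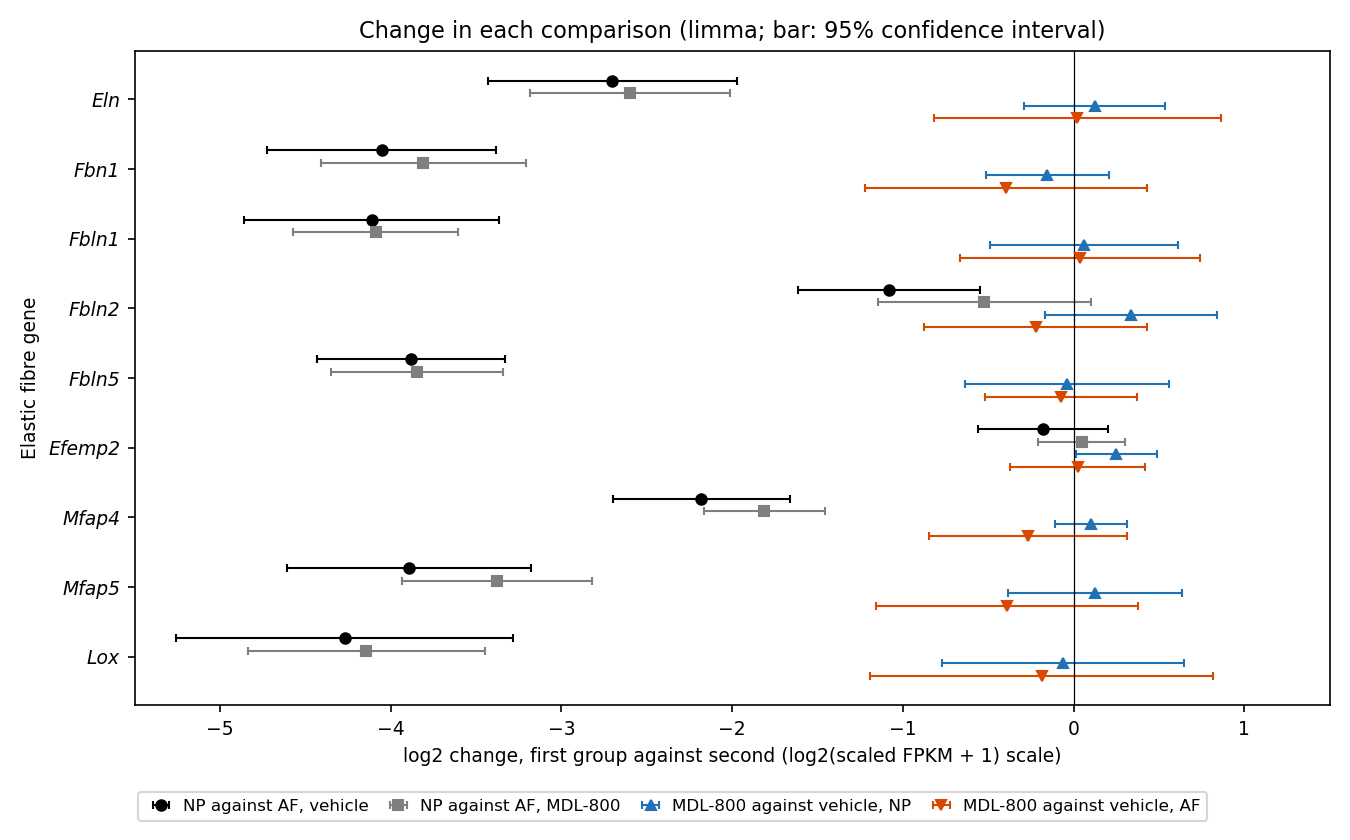
Log2 change of the 9 tested elastic fibre genes in 4 comparisons, with 95% confidence intervals from limma, on the log2(scaled FPKM + 1) scale. The tissue differences (black and grey) lie between -1.81 and -4.27 for 7 genes, while the intervals of the MDL-800 effects (blue and orange) include 0 but for Efemp2 in NP.

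AF vehicle 9 stood apart in 2 ways: it held the most NP marker signal of the AF libraries, and it was the lowest AF vehicle library for Eln, Fbn1, Fbn2, Fbln1, Fbln2, Fbln5, Mfap5 and Lox. Left out, the same 8 members were called lower in NP with vehicle, with log2 differences as large or larger for Eln (-2.87) and Fbn1 (-4.34). Skeletal muscle markers were uneven as well, from 507 to 6155 scaled FPKM over the AF libraries and from 5.33 to 789 over the NP libraries, with NP vehicle 3 at 789. Their part in the tissue differences was not tested beyond leaving libraries out.

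The order of levels differed between the tissues. In NP vehicle, Efemp2 (33.7 ± 4.67 scaled FPKM) and Fbln2 (24.1 ± 6.70) came first and their ranges overlapped, then Lox (4.99 ± 1.87) and Mfap5 (3.37 ± 1.40), which overlapped each other but not Fbln2. Fbln1, Fbn1, Fbln5 and Eln followed at under 1 and overlapped in turn, with Fbn2 and Mfap4 last. In AF vehicle the order was Lox (128 ± 76.3), Mfap5 (67.0 ± 30.6), Fbln2 (52.0 ± 13.8), Efemp2 (38.9 ± 9.83), Fbln1 (35 ± 16.7), Fbn1 (32.5 ± 13.4) and Fbln5 (24.7 ± 4.45). Each of these 7 overlapped its neighbour, and Eln, at 7.99, was the first whose range lay clear below. MDL-800 groups had the same first 4 genes in the same order in each tissue.

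Put together, the 10 members summed in NP to 69.1 ± 12.2 scaled FPKM with vehicle and 82.0 ± 8.95 with MDL-800, and in AF to 391 ± 127 and 329 ± 101. Efemp2 and Fbln2 made up 49.0% and 34.4% of that sum in NP vehicle, and 10.9% and 13.9% in AF vehicle. Lox and Mfap5 made up 30.6% and 17.2% of the sum in AF vehicle, and 7.11% and 5.26% in NP vehicle. Eln was 0.384% of the sum in NP with vehicle and 2.02% in AF vehicle. Set against the fibrillins, Eln stood at 0.265 of Fbn1 plus Fbn2 in both NP and AF with vehicle (exact permutation test, p = 1.0). NP vehicle 3 alone was at 0.851, and without it the NP value was lower than the AF value by 0.146. With MDL-800 the ratio was 0.501 in NP and 0.315 in AF, with overlap (exact permutation test, p = 0.0873, adjusted p = 0.432).

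How much the members fell from AF to NP can be set beside markers of the cells that make up the AF. Fibroblast markers (Pdgfra, Dcn, Lum, Dpt, Pi16 and Clec3b) stood in NP at 1.16 to 2.44% of their AF level with vehicle and at 0.993 to 2.42% with MDL-800. The tendon-like structural genes Kera, Thbs4, Tnmd and Col1a2 stood at 1.17 to 2.77% with vehicle, and Col1a1 at 4.87%. The tendon factors Mkx and Scx stayed far higher, at 31.0% and 55.0%. Fbn1, Fbln1, Fbln5, Mfap5 and Lox, at 2.74 to 5.04%, lay in or a little above the range of these structural genes. Eln stood at 3.55%, and at 1.37% without NP vehicle 3. Fbln2 (46.3%) lay between Mkx and Scx and Efemp2 above both. None of the 6 fibroblast markers was listed at 0 in all libraries of an NP group, and the share of NP signal that AF fragments could carry was not tested.

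**Figure D3:**
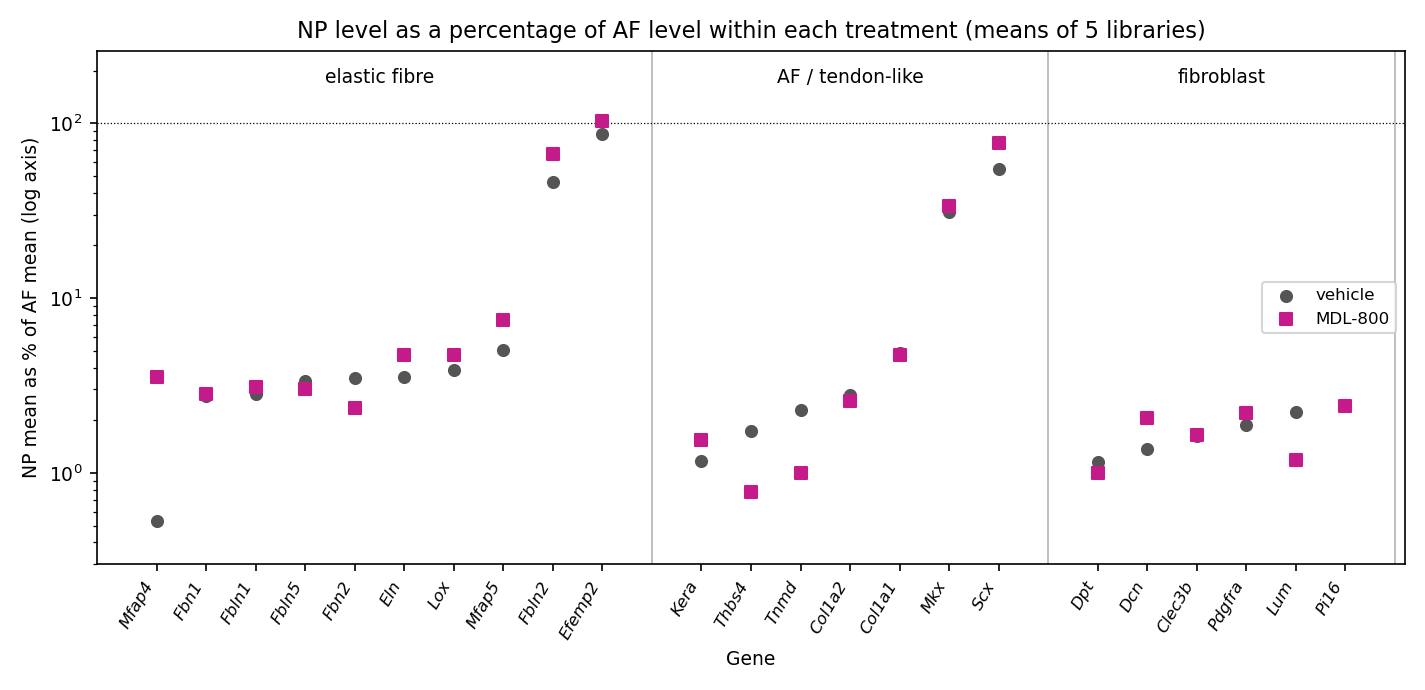
NP mean as a percentage of the AF mean (log axis) for the 10 elastic fibre genes, 7 AF and tendon-like markers and 6 fibroblast markers, with vehicle (circles) and MDL-800 (squares). Fbn1, Fbln1, Fbln5, Mfap5, Lox and Eln lie between 2 and 8% (Eln with vehicle at 1.37% without NP vehicle 3), Fbln2 and Efemp2 lie at 46.3% or more, and the points of Mfap4 and Fbn2 rest on NP levels near or under 3 fragments.

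Vessel walls are rich in elastic fibres, so smooth muscle and pericyte markers were read too. Their sum was higher in NP than in AF, at a median of 892 against 226 scaled FPKM with vehicle, carried by Acta2, Tagln and Myh11. Gene by gene the 7 markers were mixed, at 2.46 to 394% of AF with vehicle (median 97.7%). With MDL-800 they stood at 1.58 to 324% (median 38.3%). The pericyte genes Rgs5 and Notch3 stood in NP at 2.46% and 3.62% of AF with vehicle, as low as Eln and Fbn1. Endothelial markers summed to a median of 5.03 in NP and 57.8 in AF vehicle. Their part in the levels of the elastic fibre genes was not tested.

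MDL-800 did not move any member past the threshold. In NP, where limma called 0.25% of genes, or 41 of 16383 (0.232% higher and 0.0183% lower), 0 of 9 tested members were called. That background is not stable: the 41 became 2 without NP vehicle 3 or NP MDL-800 22 and 189 without NP vehicle 6. It became 4 with all 4 groups in the fit, and 0 members were called in each of these fits. At an unadjusted p under 0.05 stood 1 member, beside 2311 of all genes tested (14.1%). That member was Efemp2, at 40.1 ± 4.18 scaled FPKM with MDL-800 against 33.7 ± 4.67 with vehicle, a log2 change of 0.25 (SE 0.11, interval 0.01 to 0.49, limma adjusted p = 0.329). Its ranges overlapped, from 34.5 to 44.2 against 27.6 to 37.7. Fbln2 changed by 0.33 (SE 0.23, interval -0.17 to 0.84, adjusted p = 0.549). The other members in NP had changes between -0.15 and 0.13 with standard errors of 0.10 to 0.32, and their intervals reached from -0.77 to 0.65.

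In AF, limma called 0 genes with MDL-800, with 270 at an unadjusted p under 0.05, and every member had an adjusted p of 1. Changes ran from -0.40 for Fbn1 (SE 0.37, interval -1.23 to 0.43) and -0.39 for Mfap5 (SE 0.35, interval -1.16 to 0.38) to 0.04 for Fbln1 (SE 0.32). The groups overlapped for all 10 members. Eln changed by 0.02 with an interval of -0.82 to 0.86, so changes within that range in either direction were not excluded with 5 libraries a group. Lox had the widest interval, from -1.19 to 0.82.

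Whether MDL-800 acted differently in the tissues was tested as the NP effect minus the AF effect. limma called 0 of 16383 genes, with 611 at an unadjusted p under 0.05, and 0 members. The values for the members ran from 0.02 for Fbln1 to 0.56 for Fbln2 and 0.52 for Mfap5 (SE 0.43), all with an adjusted p of 0.9997.

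The fibre's partners were followed in 6 lists that hold 41 genes, of which limma tested 39. In vehicle mice 25 were called lower in NP, 5 higher and 9 neither, with a median log2 difference of -1.53 against -0.08 over all genes tested, of which 33.9% were called lower and 21.8% higher. With MDL-800 the counts were 24, 7 and 8, where 37.2% of all genes were called lower and 25.6% higher. Of the 39, 11 reached 1 FPKM in fewer than 5 NP libraries and passed the filter only with AF libraries counted. Such a filter favours genes that are higher in AF. These 11 were Mfap2, Emilin1, Emilin3, Efemp1, Fbln7, Hmcn2, Loxl1, Adamtsl2, Adamtsl3, Thsd4 and Mmp12. The counts over these lists are a description and no support for a direction. The genes were chosen by role, with results of these data already known.

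Among 9 microfibril partners, 7 were lower in NP with vehicle and 1 was higher, beside 33.9% and 21.8% of all genes, and 3 of the 9 were tested only through AF. Emilin2, of the family that sits where elastin meets microfibrils, stood at 1.41 ± 1.10 scaled FPKM in NP and 21.3 ± 5.31 in AF (limma adjusted p = 9.35e-06). Ltbp2, which binds fibrillin without binding latent TGF-β, stood at 1.99 ± 0.821 and 28.8 ± 12.2 (adjusted p = 3.52e-05). Ltbp1, which tethers latent TGF-β to the matrix, ran the other way, at 104 ± 25.1 in NP and 48.5 ± 6.58 in AF with no overlap (adjusted p = 0.000291). With MDL-800 it was at 77.1 ± 13.1 and 46.3 ± 13.2 with overlap (adjusted p = 0.00386), and Emilin1, another emilin, at 0.851 ± 0.475 and 18.8 ± 5.57 (adjusted p = 1.82e-06).

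Of 4 other fibulins and their relatives, 3 were lower in NP, each tested only through AF, and Hmcn1 was not called. Beside them, 33.9% of all genes were called lower with vehicle and 37.2% with MDL-800. Fbln7 stood at 0.818 ± 0.378 scaled FPKM in NP with vehicle and 35.1 ± 11.5 in AF vehicle (limma adjusted p = 3.98e-06). Efemp1 (fibulin-3) stood at 1.02 ± 1.01 and 28.6 ± 13.5 (adjusted p = 2.38e-05). Of all 8 fibulin-family genes read here, Efemp2 and Hmcn1 were the ones not called between tissues in either treatment. In these comparisons 55.7% (vehicle) and 62.8% (MDL-800) of all genes were called. Fbln5, Efemp1, Fbln7 and Hmcn2 were tested only through AF, and Fbln2 was called with vehicle alone.

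Cross-linking enzymes differed in which gene carried the level. Lox made up 1.31, 4.89, 3.45, 3.69 and 4.45% of the summed lysyl oxidase family in NP with vehicle and 55.5, 28.9, 57.6, 60.1 and 57.7% in AF vehicle. With MDL-800 it made up 1.53 to 3.89% in NP and 38.8 to 62.2% in AF. The tissues did not overlap in either treatment, and the exact two-sided permutation p of 0.00794 is the smallest that 5 against 5 allows (adjusted p = 0.0635 over 16 tests). Loxl2, a relative best known for collagen IV and matrix stiffening, made up 63.3 ± 6.26% of the family in NP with vehicle and 23.5 ± 8.57% in AF vehicle.

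In level, Loxl2 stood at 90.0 ± 15.1 scaled FPKM in NP with vehicle and 52.6 ± 24.9 in AF vehicle, where the ranges overlapped (log2 difference 0.86, SE 0.27, limma adjusted p = 0.0178). With MDL-800 it stood at 97.9 ± 26.9 and 34.4 ± 15.7 without overlap (1.58, SE 0.33, adjusted p = 0.00177). Loxl1, the relative most tied to elastin, was lower in NP like Lox, at 0.663 ± 0.144 in NP and 7.86 ± 2.16 in AF (limma adjusted p = 6.45e-06). Loxl1 was tested only through AF. Loxl4 was called with MDL-800 alone, at 24.8 ± 7.77 in NP and 12.7 ± 6.92 in AF with overlap (adjusted p = 0.0156), and at 20.1 ± 4.56 and 12.5 ± 7.45 with vehicle it was not (adjusted p = 0.0579). Loxl3 did not pass the test, at 26.3 ± 8.42 and 35.4 ± 19.8 (adjusted p = 0.418). Summed over the family, the level was 142 ± 18.2 in NP with vehicle and 237 ± 123 in AF vehicle. Postn (periostin), which helps activate lysyl oxidase, was lower in NP, at 1.57 ± 0.833 against 53.3 ± 37.6 (adjusted p = 4.43e-05), and Atp7a, the pump that loads copper onto lysyl oxidases, was higher, at 15.0 ± 1.75 against 9.43 ± 0.793 (adjusted p = 0.00055).

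**Figure D4:**
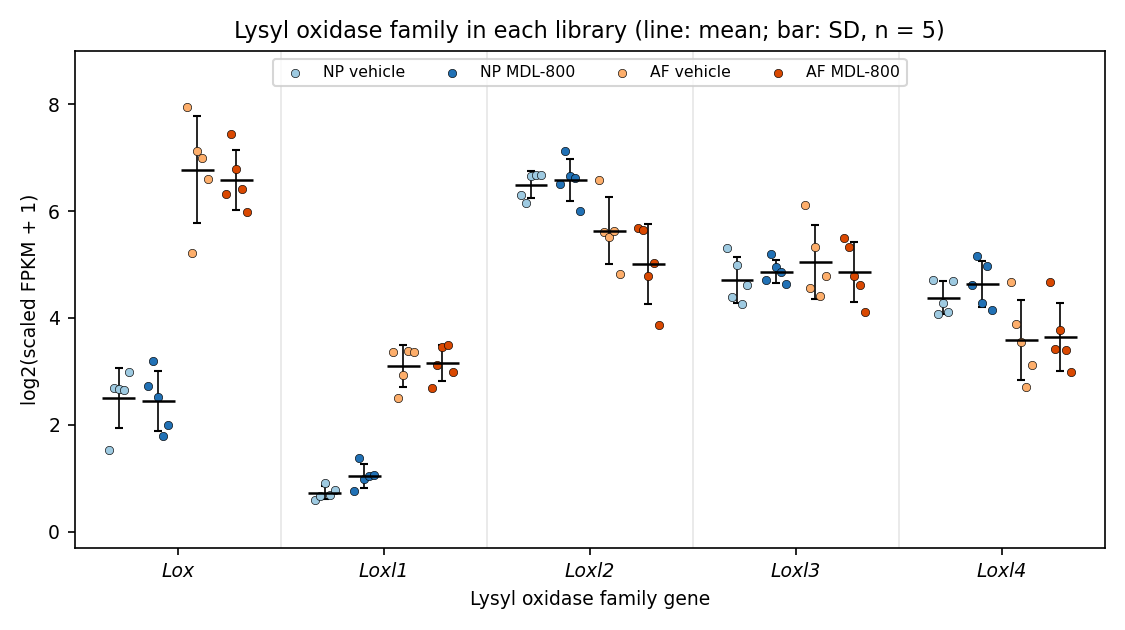
Level of the 5 lysyl oxidase genes in each of the 20 libraries as log2(scaled FPKM + 1), with the mean (line) and SD (bar) of each group. Lox and Loxl1 lie lower in NP (blue) than in AF (orange) without overlap, Loxl2 lies higher in NP on average, and Loxl3 overlaps.

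Fibrillin-binding proteins of the ADAMTS and ADAMTSL families had 4 of 7 tested genes lower in NP and 2 higher with vehicle, beside 33.9% and 21.8% of all genes. Of the 4 that were lower, Adamtsl2, Adamtsl3 and Thsd4 were tested only through AF. Adamtsl3 stood at 0.187 ± 0.0839 scaled FPKM in NP and 8.24 ± 3.30 in AF (limma adjusted p = 1.7e-05). Adamtsl2 stood at 0.794 and 4.84 (adjusted p = 0.000137), and Thsd4 (ADAMTSL6) with MDL-800 at 0.105 and 5.34 (adjusted p = 5.33e-05). Adamtsl1 stood at 23.5 ± 4.57 in NP and 5.51 ± 2.11 in AF with no overlap (adjusted p = 5.24e-05). Adamtsl5 was higher in NP, at 10.5 ± 3.12 against 5.90 ± 2.76 (adjusted p = 0.032), a call that was lost when any of 5 libraries was left out (NP vehicle 3, 5 or 6, AF vehicle 12 or 13), when every gene above 0 was kept and with a block on the column numbers (adjusted p = 0.0589 to 0.0785). With MDL-800 Adamtsl5 stood at 16.0 ± 3.36 against 4.45 ± 0.856 (adjusted p = 9.83e-06).

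Proteases that can degrade elastin were lower in NP in 7 of 7 tested with vehicle and 6 of 7 with MDL-800, beside 33.9% and 37.2% of all genes, and Mmp12 was tested only through AF. Mmp2 stood at 2.52 ± 2.09 scaled FPKM in NP with vehicle and 168 ± 98.4 in AF vehicle (limma adjusted p = 2.18e-05). Ctss (cathepsin S), made by macrophages among others, stood at 7.67 ± 7.55 and 172 ± 76.0 (adjusted p = 2.17e-05). The summed macrophage markers were lower in NP too, at a median of 95.6 in NP with vehicle and 1525 in AF vehicle. Gene by gene these markers varied, at 5.71 to 50.7% of AF with vehicle (median 29.9%) and 4.74 to 62.0% with MDL-800 (median 40.5%). Summed neutrophil markers stood at 535 and 10413 with vehicle, each marker at 8.13 to 9.72% of AF. The part of these cells was not tested. Mmp7 was listed at 0 in all 20 libraries. Among 4 receptor genes for elastin, Itgb3 was lower in NP, at 3.40 ± 2.50 against 32.9 ± 11.5 (adjusted p = 8.55e-05), while Itgav, Itgb5 and Glb1 did not pass the test.

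With MDL-800, 1 of the 39 tested partners was called in NP and 0 in AF, where 0.25% and 0 of all genes were called. This was Ltbp3, a carrier of latent TGF-β, which gave 11.4, 9.16, 12.3, 10.2 and 14.0 scaled FPKM in NP with vehicle and 17.1, 21.1, 20.6, 21.7 and 19.9 in NP with MDL-800. The groups did not overlap, as for 3.5% of all genes tested in that direction. The log2 change was 0.77 (SE 0.11, limma adjusted p = 0.036). The call is near the threshold: the change stayed between 0.70 and 0.84 when single libraries were left out, but the adjusted p passed 0.05 in 8 of those 10 fits and reached 0.125. It also passed 0.05 with values scaled to equal library sums (0.0611), with every gene above 0 kept (0.0859) and with all 4 groups in the fit (0.130). In AF, Ltbp3 stood at 25.3 ± 10.3 with vehicle and 26.9 ± 4.42 with MDL-800, and the NP effect minus the AF effect was 0.61 (SE 0.28, adjusted p = 0.9997).

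In the lists with no called gene, the gene of smallest p in each list for MDL-800 in NP was named, with these values: Hmcn1 (log2 change -0.54), Loxl1 (0.32), Adamtsl4 (0.45), Ctsk (-0.22) and Itgb5 (0.24), with limma adjusted p from 0.195 to 0.427. In AF the gene of smallest p in each of the 6 lists gave Ltbp2 (-0.40), Fbln7 (-0.28), Loxl2 (-0.62), Thsd4 (0.61), Ctss (-0.64) and Itgav (-0.16), all with an adjusted p of 1. For the difference between the effects, the same choice gave, besides Ltbp3, Hmcn1 (-0.47), Loxl2 (0.72), Adamtsl5 (0.84), Mmp12 (0.59) and Itgb5 (0.31), all with an adjusted p of 0.9997.

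Within groups, most pairs of members varied in the same direction. Over deviations from the group mean, the median Pearson r of the 36 pairs of tested members was 0.55 in the 10 AF libraries (-0.03 to 0.88) and 0.27 in the 10 NP libraries (-0.81 to 0.76). In AF the closest pairs were Fbn1 with Mfap5 (r = 0.88), Eln with Fbln1 (0.86) and Fbn1 with Fbln2 (0.84). In NP they were Fbln1 with Efemp2 (0.76) and Fbn1 with Fbln5 (0.71), while Fbln1 with Mfap5 stood at -0.81. The genes of a pair share libraries, depth and dissection, most NP values are low, and the difference between tissues was not tested. Pairs of all tested genes were not read. Whether the members vary together more than other genes do was therefore not tested.

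**Figure D5:**
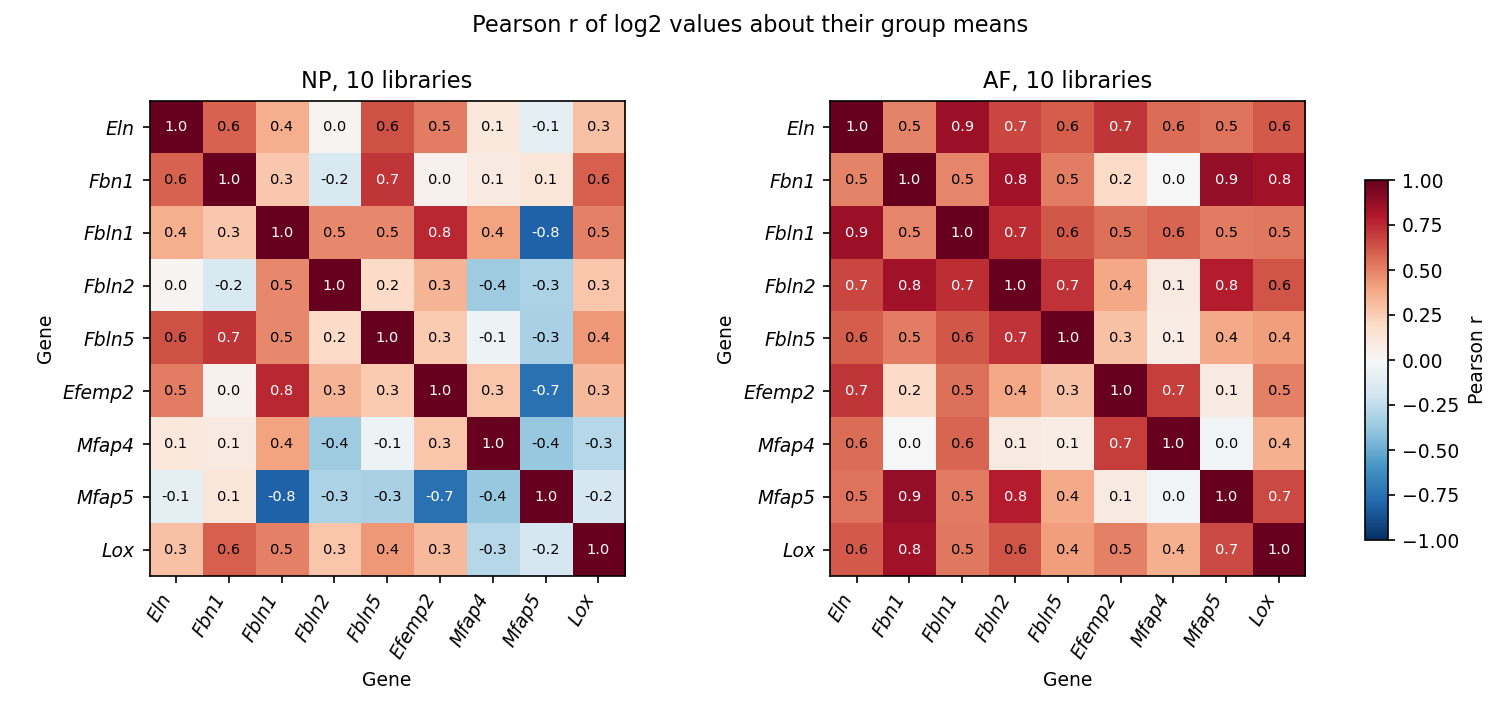
Pearson r between pairs of the 9 tested elastic fibre genes, over log2 values minus their group mean, in the 10 NP libraries (left) and the 10 AF libraries (right). In AF 35 of 36 pairs are above 0, and in NP 25 of 36, with no background over pairs of all genes.

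The genes most like Eln, Fbn1 and Lox were taken as the 5 with the highest Pearson r over the same deviations in all 20 libraries, among 10714 or 10715 genes with a mean of at least 5 scaled FPKM. For Fbn1 these were Enpp2 (r = 0.93), Sulf1 (0.92), Fndc1 (0.91), Sdc2 (0.90) and Medag (0.90). For Lox they were Enpp1 (0.91), Fam46a (0.88), Runx1 (0.87), Klhl5 (0.87) and Lbp (0.87). Eln followed B4galt2 (0.87), Ogn (0.85), Ntn1 (0.79), Rhoc (0.78) and Lepr (0.77). The list for Eln rests in part on low values, since Eln reached 1 FPKM in 0 of 10 NP libraries. Picked by r itself, these genes are a description, and no test was run on them. Among the members themselves the closest pair over all libraries was Fbn1 with Lox (0.77).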

How the data were processed

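RNA was sequenced from 20 libraries of mouse NP and AF. Values are FPKM as deposited by the authors, in 1 table of 51789 Ensembl genes. Per the labels' protocols, libraries were stranded total RNA after ribosomal depletion, made with 50 ng input and 14 PCR cycles. STAR 2.7.11b and mm10 are named in the submitters' processing notes, and the counting program, its use of strand and the annotation are not given in the sources used here. Gene coordinates and exons came from GENCODE M21. FPKM values were divided by median-ratio scale factors over 11308 genes (0.933 to 1.06). Groups were compared in pairs, with only the 2 groups in the fit, with limma 3.58.1 in R 4.3.3 (eBayes with trend, two-sided) on log2(scaled FPKM + 1), over the 16383 genes that reached 1 FPKM in 5 or more libraries, with Benjamini-Hochberg adjustment. Ratios within libraries were compared with exact permutation tests. Depth was estimated from steps in the low values of 6641 single-exon genes; 77.4 to 85.5% of those values lay on a step, too few to recover counts, so no count test was run. Alternatives changed the scaling, the pseudocount, the filter, the trend, sample weights and the samples in the fit. Scripts were tested on simulated data. All 10 members are given with values in both tissue comparisons, while some MDL-800 effects and differences between effects appear only as ranges. From each list of partners, per comparison, the genes chosen were the 2 called with the largest absolute log2 change in each direction. With none called it was the gene of smallest p. For some chosen partners, the tissue values with MDL-800 are not printed. Mfap2 and the other lysyl oxidases are named as parts of the ratios, and Hmcn1, Itgav, Itgb5, Glb1, Mmp7 and tissue values of Ltbp3 were added after their values were seen. The members, lists and tests were chosen with earlier results of these data known.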

Additional observations from a re-analysis of the deposited data

Results flagged for a closer look

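In 56 groups of 5 values (10 members and 4 ratios in 4 groups), Dixon's test at its 95% critical value of 0.71 marked 7 values as far from the other 4. For normal values in independent groups, chance marks about 1 in 20. Here the ratios reuse values of the members and some NP levels lie near 0. The number marked is therefore not read against that rate. Eln in NP vehicle 3 was at 0.981 scaled FPKM, where the other NP vehicle libraries lay between 0.0197 and 0.197, and Eln per fibrillin in the same library was at 0.851 against 0.0556 to 0.168. Fbn2 in NP MDL-800 19 was at 0.0807 scaled FPKM against at most 0.0210, and its share of both fibrillins there was 9.76% against at most 1.89%. Mfap4 in NP MDL-800 22 was at 0.391 scaled FPKM against at most 0.0505. Both of these genes rest on a few fragments in NP. Efemp2 in AF MDL-800 30 was at 29.7 scaled FPKM, below the 39.8 to 43.3 of the other libraries. Lox made up 28.9% of its family in AF vehicle 9, the AF library with the most NP marker signal, against 55.5 to 60.1% in the other AF vehicle libraries.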

How the results depend on the processing

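The tissue calls of the 8 members with vehicle and the 7 with MDL-800 kept their direction and stayed under the threshold in every alternative that tested them (a filter at 5 FPKM does not test Mfap4). Fbln2 with MDL-800, not called, was called with sample quality weights (-0.63, adjusted p = 0.0482) and without AF MDL-800 30. Quantile normalization moved the median tissue difference of all genes with vehicle from -0.08 to 0.20, a shift of the whole scale, and turned the split of calls from 3577 higher and 5550 lower to 6474 and 3925 (with MDL-800 from 4188 and 6102 to 6919 and 4288), while the members stayed lower. Genes called with MDL-800 in NP numbered 18 with no scaling, 21 with values scaled to equal sums, 70 with quantile normalization, 81 with the 5 FPKM filter, 7 with every gene above 0, 18 with no trend and 4 with all 4 groups in the fit, against 41, and 2 (without NP vehicle 3 or NP MDL-800 22) to 189 (without NP vehicle 6) with 1 library left out; 0 members were called in any of these. In AF, and for the difference between tissues, leaving out single libraries gave 0 to 1 genes.

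Values that changed sign were all uncalled, apart from the Fbn2 share below, and the causes were not tested. Efemp2 between tissues with MDL-800 was -0.035 with no scaling, -0.019 with equal library sums and -0.0014 with weights, and -0.044 to 0.099 with single libraries left out. In NP, MDL-800 changed Fbln1 by -0.069 with weights and Fbln5 by 0.046 with a pseudocount of 0.1. In AF, weights gave -0.087 for Eln, -0.047 for Fbln1 and -0.011 for Efemp2, and leaving out AF vehicle 12 and AF MDL-800 27 gave -0.35, -0.13 and -0.15. The difference between tissues became -0.062 for Fbln1, -0.082 for Fbln5 and -0.015 for Lox with equal library sums, and -0.028 for Fbln1 with weights.

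With single libraries left out, the MDL-800 change in NP ran from -0.077 to 0.19 for Fbln1, -0.20 to 0.14 for Fbln5, -0.0012 to 0.28 for Mfap5 and -0.30 to 0.11 for Lox. In AF it ran from -0.17 to 0.28 for Eln, -0.19 to 0.25 for Fbln1, -0.40 to 0.018 for Fbln2, -0.15 to 0.081 for Fbln5, -0.11 to 0.14 for Efemp2 and -0.58 to 0.11 for Lox. The difference between tissues ran from -0.15 to 0.30 for Eln, -0.19 to 0.25 for Fbln1, -0.12 to 0.21 for Fbln5 and -0.17 to 0.52 for Lox.

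The Fbn2 share between tissues, NP minus AF, turned to 9.63 percentage points with vehicle and 9.69 with MDL-800 (exact permutation test, adjusted p = 0.0423) when 0.1 FPKM was added to each gene, which lifts Fbn2 most where it is near 0, and to 0.80 on a log2 odds scale with vehicle. With MDL-800 in NP it was -0.017 on that scale. The Mfap5 share with vehicle turned to -1.14 with 0.1 added, and Eln per fibrillin to -0.34 on the log2 scale. Without single libraries, the Fbn2 share ran from -1.06 to 0.62 between tissues with vehicle and from -1.55 to 1.26 for MDL-800 in NP, the Mfap5 share from -1.72 to 4.48 and from -1.88 to 4.32 in the same comparisons, the Lox share for MDL-800 in AF from -3.43 to 6.21, and Eln per fibrillin with vehicle from -0.15 to 0.053.

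Titles share no replicate numbers between groups. Column names carry a further number of unstated meaning, shared by NP and AF libraries in 8 pairs whose deviations correlated at -0.18 to 0.29, with 2 of 8 matching best. As an alternative chosen after seeing the data, a replicate block on that number called 8783 genes between tissues with vehicle and 10492 with MDL-800 and changed no call of a member. Estimated depth limits Eln, Fbn2 and Mfap4 in NP, where single libraries rest on a few fragments.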
